A study of Rattus norvegicus with 5 samples.

Results

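The 10 genes described here belong to the Hippo pathway and its output. They are the regulators Yap1, Wwtr1, Tead1 and Lats2 and the YAP and TEAD target genes Ankrd1, Ccn1, Ccn2, Amotl2, Axl and Nuak2. They were selected on readouts of these arrays, differences between knockdown and its control among them, so their differences are given as a description, with no test. Array probes could be named for 9 of the 10 genes, among 15069 genes named on the array. No probe could be named for Yap1. The 9 genes were read by 11 probes, with 2 probes each for Lats2 and Axl. For a gene with several probes, the brightest over the 5 arrays stands for the gene.

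Hippo signalling is a kinase cascade in which MST kinases activate LATS kinases, and LATS kinases phosphorylate the coactivators YAP and TAZ and keep them out of the nucleus. Unphosphorylated YAP and TAZ enter the nucleus, bind the TEAD transcription factors and switch on genes for matrix signalling, cytoskeleton and growth. In the liver the pathway is known for its control of organ size. Several of its targets, LATS2 and AMOTL2 among them, act back on YAP and TAZ as brakes.

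The cells were BRL-3A, a line from Buffalo rat liver that the labels call hepatocytes. Per the labels there were 5 groups with 1 array each. Cells were transduced with a lentivirus for overexpression of Tmub1, with one for its knockdown, or with the matching negative control of either, and normal cells received no virus. RNA was taken 48 h after transduction. Tmub1 encodes a membrane protein with a ubiquitin-like domain. With 1 array a group there was no spread between replicates, so no difference below has a replicate check or a p-value. Expression was read on one-colour Agilent arrays. A level is the log2 processed signal of a probe minus the 75th percentile of its own array, so levels are compared between arrays and never between probes.

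Tmub1 itself stood at 0.48 on the array labelled overexpression and -1.38 on the knockdown array, against 0.44 in the overexpression control, 0.46 in the knockdown control and 0.14 in normal cells. The knockdown array was therefore 3.60-fold lower than its control. The array labelled overexpression differed from its control by 1.03-fold and did not show its label in this probe. The sources used here do not say whether the probe lies inside the sequence the virus carried. The normal array stood apart in other ways. It was scanned separately from the other 4, so scan and group cannot be told apart there. Of 12 muscle markers, 7 were at least 2.5-fold higher in each negative control than in normal cells, as were 3 of 5 leukocyte markers. Of 9 mesenchymal markers, 3 were higher by this fold in the overexpression control and 2 in the knockdown control. In these 3 lists 0 markers were lower by this fold. The muscle marker Ckm was 9.06 log2 units higher in the overexpression control and 8.95 higher in the knockdown control than in normal cells. Hepatocyte markers well above background numbered between 6 and 9 of 11 on the 5 arrays. Cps1 was below that mark on all 5 and Alb on 3 of them, while between 8 and 9 of 9 mesenchymal markers were above it. In a culture measured as a whole, more RNA per cell and more cells of a kind cannot be told apart.

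With Tmub1 knockdown, 8 of the 9 measured Hippo genes were at least 2.5-fold higher than in the knockdown control, and none was lower. All 6 targets and 2 of the 3 regulators were higher. The fold of 2.5 is the one in the series' design text. Across the array 8.64% of 12792 genes were that much higher and 9.5% were lower. The median difference was 2.96 log2 units over the 9 Hippo genes, against -0.21 over all genes. Of all genes that differed by this fold, 47.6% were higher. That share was 35.5% when arrays were scaled on their median and 71.4% when the percentile was taken over probes above background on every array, while 7 Hippo genes were higher under the median scaling and 8 under the other. The genes were chosen with these values known, and the count is not evidence beyond them. Of the hepatocyte markers, 2 of the 9 that could be compared, Alb and Ahsg, were lower by this fold with knockdown than in its control and none was higher. Their summed level over 11 markers, in units of the 75th percentile, was 3.41 on the array labelled overexpression and 1.24 with knockdown, against 3.35 in the overexpression control, 3.27 in the knockdown control and 3.06 in normal cells. Ahsg, a secreted liver glycoprotein, was lower with knockdown by 6.15-fold against its control, 5.98-fold against the overexpression control and 9.02-fold against normal cells. Alb was not well above background with knockdown, in the overexpression control or in normal cells. Its knockdown level could thus be compared with the knockdown control alone. Against the overexpression control, 3 of 9 hepatocyte markers were lower by 2.5-fold and 0 higher, beside 16.3% and 13.3% of all genes. Against normal cells 4 of 9 were lower and 1 higher, beside 19.5% and 11.2%. The part of these markers in the Hippo differences was not tested.

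**Figure D1:**
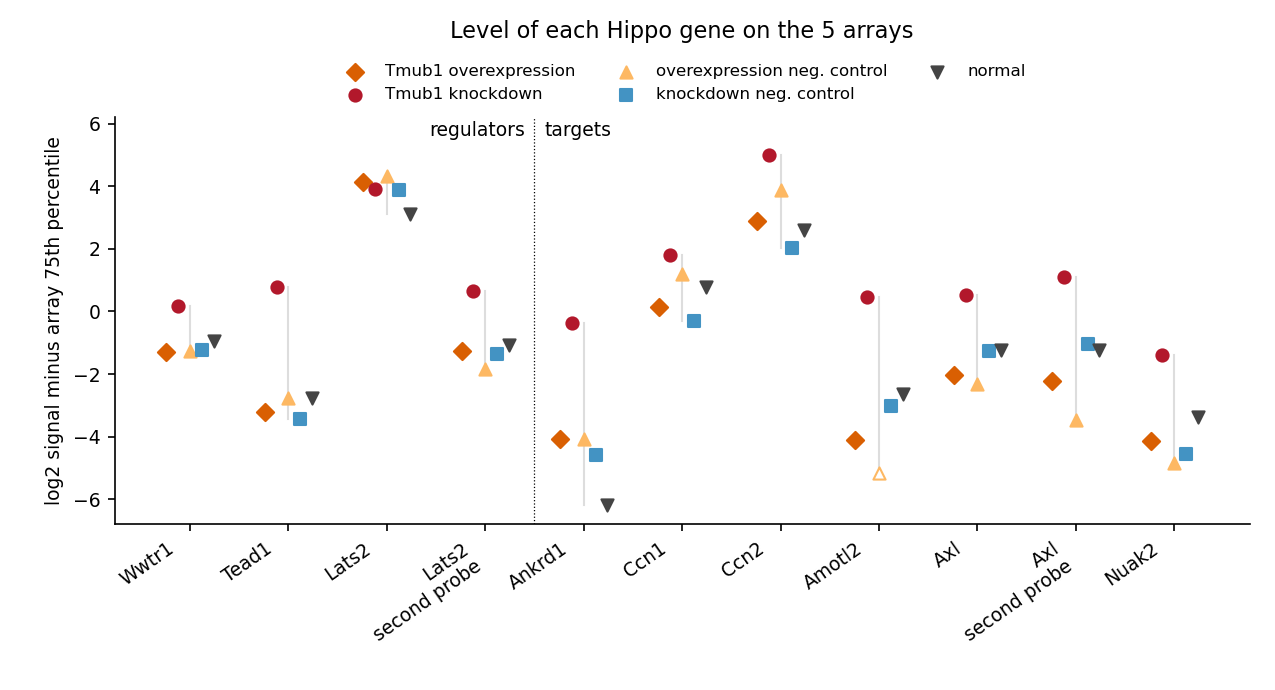
Level of each Hippo gene probe on the 5 arrays, as log2 signal minus the array's 75th percentile. Each symbol is 1 array, an open symbol is not well above background, and a dotted line parts regulators from targets. The knockdown circles are the highest of the 5 symbols in every gene except Lats2 by its brighter probe.

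Wwtr1 encodes TAZ, the coactivator that pairs with YAP. Its level was -1.30 on the array labelled overexpression and 0.17 with knockdown, against -1.27 in the overexpression control, -1.22 in the knockdown control and -0.94 in normal cells. The 4 other arrays lay close together and the knockdown array above them. The knockdown array was 2.63-fold higher than its control, just past the fold of 2.5, and 2.17-fold higher than normal cells, short of it. Scaled on the array median the log2 difference from the knockdown control was 1.25, and after normexp background correction it was 1.26, both under 2.5-fold. The scanner's own error gave a 95% interval of 0.99 to 1.80 around the 1.39 log2 difference from the knockdown control. Such an interval covers the reading of the spots and not the spread between cultures.

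Tead1 encodes the TEAD factor that carries YAP and TAZ to DNA. Its level was -3.21 on the array labelled overexpression and 0.77 with knockdown, against -2.76 in the overexpression control, -3.44 in the knockdown control and -2.75 in normal cells. Knockdown stood apart from the 4 other arrays, which lay close together. The difference from the knockdown control was 4.21 log2 units, or 18.5-fold, with a scanner interval of 3.79 to 4.63. It was 11.6-fold against the overexpression control and 11.5-fold against normal cells.

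Lats2 encodes a LATS kinase, which inhibits YAP and TAZ and is also their target. Its brighter probe was read in 9 or 10 spots per array after outlier spots were left out. By that probe the level was 4.14 on the array labelled overexpression and 3.91 with knockdown. It was 4.32 in the overexpression control, 3.87 in the knockdown control and 3.12 in normal cells. Here knockdown and its control were 1.03-fold apart. The dimmer probe gave -1.27 on the array labelled overexpression and 0.67 with knockdown, against -1.82 in the overexpression control, -1.37 in the knockdown control and -1.08 in normal cells. By that probe, knockdown was 4.10-fold higher than its control. The 2 probes of Lats2 thus disagree, and which of them follows the transcript was not tested.

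Among the targets, short stretches before the gene start are printed for the 4 that hold the letters GGAATG, the core of the element that TEAD proteins bind, to show where the letters lie in them. The sequences are from RefSeq, build GRCr8, and run 5′ to 3′ on the gene's strand over the 250 bases before the start. Capitals mark GGAATG or its reverse complement CATTCC.
Ccn2, chr1:22624615-22624864, minus strand: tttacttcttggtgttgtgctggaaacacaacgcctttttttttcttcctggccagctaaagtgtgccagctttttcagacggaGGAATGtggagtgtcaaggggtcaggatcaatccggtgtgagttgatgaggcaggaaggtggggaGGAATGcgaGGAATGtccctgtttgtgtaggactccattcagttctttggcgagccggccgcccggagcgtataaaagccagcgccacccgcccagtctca
Ccn1, chr2:237225690-237225939, minus strand: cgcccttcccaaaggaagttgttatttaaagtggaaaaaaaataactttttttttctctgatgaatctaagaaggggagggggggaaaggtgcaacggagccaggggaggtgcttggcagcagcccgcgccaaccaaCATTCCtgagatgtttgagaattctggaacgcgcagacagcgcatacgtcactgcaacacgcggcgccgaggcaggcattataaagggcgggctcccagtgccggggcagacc
Amotl2, chr8:112182376-112182625, plus strand: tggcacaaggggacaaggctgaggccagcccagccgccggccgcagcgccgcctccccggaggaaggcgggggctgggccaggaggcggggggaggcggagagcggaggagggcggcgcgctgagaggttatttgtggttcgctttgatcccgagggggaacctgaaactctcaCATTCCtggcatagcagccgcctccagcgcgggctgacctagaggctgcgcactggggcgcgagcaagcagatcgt
Nuak2, chr13:46305756-46306005, plus strand: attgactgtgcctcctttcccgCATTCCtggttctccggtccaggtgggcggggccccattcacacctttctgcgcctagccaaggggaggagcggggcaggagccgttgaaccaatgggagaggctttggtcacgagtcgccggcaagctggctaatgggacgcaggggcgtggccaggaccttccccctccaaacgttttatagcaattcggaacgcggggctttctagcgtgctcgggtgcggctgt

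The motif was searched on both strands, and no match overlapped another. Ccn2 held 3 matches, at 166, 101 and 92 bases before its start, all on the gene's strand. Ccn1 held 1 match at 113 bases, Amotl2 held 1 at 76 bases and Nuak2 held 1 at 228 bases, each on the opposite strand. Of the regulators, Yap1 held 1 match at 116 bases, and the windows of Wwtr1 and of the target Axl held none. Windows were used for 7 of the 10 genes, without Tead1, Lats2 and Ankrd1, and 5 of the 7 held the motif. Among all 33469 windows of this length, 12.1% held it, and 0.0807% held 3 or more. Among genes on the array, 8.84% of 1142 with the motif were at least 2.5-fold higher with knockdown than in its control, against 8.68% of 9311 without it. A match of 6 letters describes the sequence and is not a binding site.

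**Figure D2:**
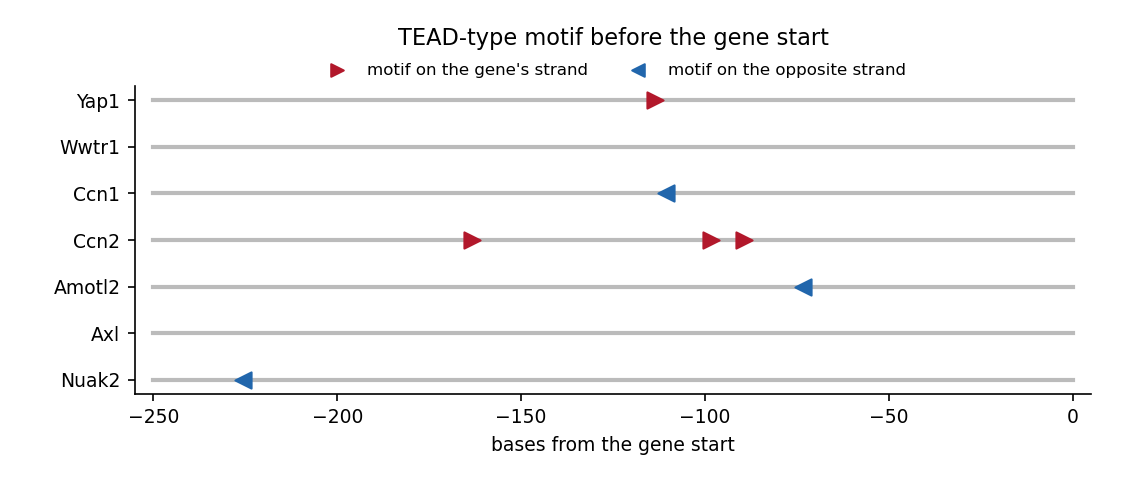
Position of the TEAD-type motif in the 250 bases before the start of 7 Hippo genes, on an axis of bases from the gene start. Red triangles are on the gene's strand and blue ones on the opposite strand. Ccn2 is the gene with 3 matches, and Wwtr1 and Axl have none.

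Ccn2, formerly Ctgf, encodes a secreted matrix protein and is a widely used readout of YAP activity. Its probe, in 9 or 10 spots per array, gave 2.90 on the array labelled overexpression and 4.99 with knockdown, against 3.89 in the overexpression control, 2.03 in the knockdown control and 2.60 in normal cells. The SD between spots of 1 array was between 0.0752 and 0.108 log2 units. Knockdown was the highest array, and the controls differed widely among themselves. It was 7.79-fold above the knockdown control and 5.24-fold above normal cells, but 2.15-fold above the overexpression control. Ccn1, formerly Cyr61, encodes a related matrix protein. It stood at 0.14 on the array labelled overexpression and 1.82 with knockdown, against 1.19 in the overexpression control, -0.30 in the knockdown control and 0.78 in normal cells. The order of the 5 arrays was close to that of Ccn2. Knockdown was 4.32-fold above its own control, 1.54-fold above the overexpression control and 2.06-fold above normal cells, so the first of these alone passed 2.5-fold.

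Ankrd1 encodes a cardiac ankyrin repeat protein of muscle and a YAP target in many cell types. Its level was -4.08 on the array labelled overexpression and -0.37 with knockdown, against -4.09 in the overexpression control, -4.59 in the knockdown control and -6.19 in normal cells. Knockdown was the highest array and normal cells the lowest. The difference was 18.6-fold from the knockdown control, 13.1-fold from the overexpression control and 56.3-fold from normal cells. The negative controls were themselves above normal cells, by 4.29-fold for overexpression and 3.03-fold for knockdown. The summed level of the 12 muscle markers, in units of the 75th percentile, was 52.0 on the array labelled overexpression and 45.0 with knockdown, against 64.7 in the overexpression control, 70.6 in the knockdown control and 12.5 in normal cells. The muscle markers thus moved with Ankrd1 between normal and transduced cells, as did 3 of 5 leukocyte markers. The muscle sum was lower with knockdown than in its control. The part of these markers in the comparison with normal cells was not tested.

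Amotl2 encodes an angiomotin that holds YAP at cell junctions and is a YAP target. It stood at -4.11 on the array labelled overexpression and 0.45 with knockdown, against -5.17 in the overexpression control, -3.03 in the knockdown control and -2.65 in normal cells. The overexpression control was not well above background, and this is the single Hippo gene below that mark on any array. Knockdown was 11.2-fold above its own control, 8.56-fold above normal cells and at least 49.4-fold above the overexpression control. A lower bound takes the dim array at its own value or, if higher, at the lowest signal well above background there.

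Axl encodes a receptor tyrosine kinase. By its brighter probe the level was -2.02 on the array labelled overexpression and 0.52 with knockdown, against -2.31 in the overexpression control, -1.27 in the knockdown control and -1.24 in normal cells. The other probe gave -2.24 on the array labelled overexpression and 1.11 with knockdown, against -3.48 in the overexpression control, -1.04 in the knockdown control and -1.23 in normal cells. Both probes had knockdown highest and the overexpression control lowest. Knockdown was 3.45-fold above its control by the brighter probe and 4.45-fold by the other. Nuak2, a kinase of the AMPK family that feeds back on LATS, stood at -4.13 on the array labelled overexpression and -1.40 with knockdown, against -4.83 in the overexpression control, -4.56 in the knockdown control and -3.36 in normal cells. The knockdown array was 8.94-fold above its control, 10.8-fold above the overexpression control and 3.90-fold above normal cells.

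The 3 comparisons of the knockdown array share that array. Against the overexpression control 6 of the 9 Hippo genes were at least 2.5-fold higher, beside 13.3% of all genes, and against normal cells 6 were, beside 11.2%. None was lower by this fold, as 16.3% of genes were in the first comparison and 19.5% in the second. Tead1, Ankrd1, Amotl2, Axl and Nuak2 passed the fold against all 3 arrays without Tmub1 manipulation, which 4.43% of 12703 genes did. The knockdown array was the highest of the 5 for 8 of the 9. Of the 8 Hippo genes well above background on every array it was the highest for 7, beside 25.5% of 10702 genes that meet the same condition.

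**Figure D3:**
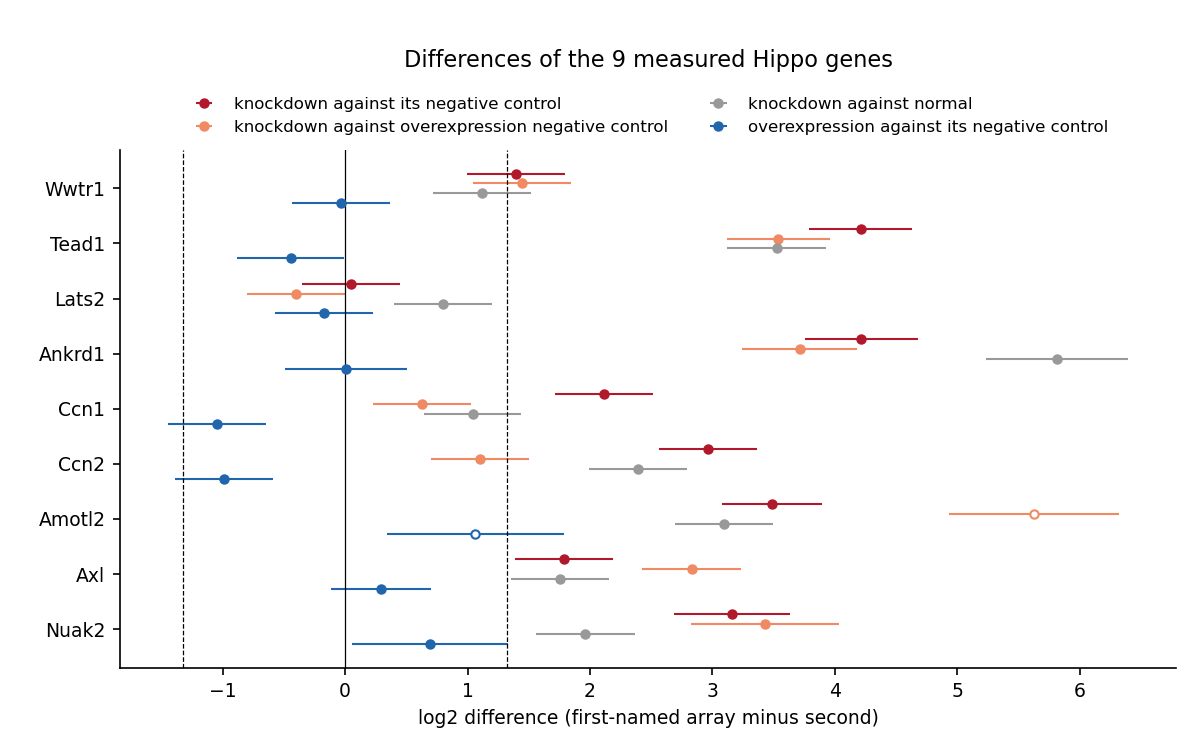
Log2 difference of each Hippo gene for knockdown against each of the 3 control arrays and for the array labelled overexpression against its control. Points are single array pairs, bars are 95% scanner intervals, open points are lower bounds and dashed lines mark 2.5-fold. The 4 rows of Tead1 show the knockdown points at 4.21, 3.54 and 3.53 and the overexpression point at -0.44.

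Brighter and dimmer probes differed on the knockdown array. Among 1474 genes with several probes above background, the brightest probe was at least 2.5-fold higher with knockdown than in its control in 4.55% of genes, and the dimmest in 18.2%. The dimmest probe had the larger signed difference in 78.2% of them, with a median gap of 0.74 log2 units. By mean level, 6.24% of genes below -4, where no Hippo gene lies, were higher, and 13.9% of genes between -4 and -2, where Tead1, Ankrd1 and Nuak2 lie. The share was 11.2% between -2 and 0, where Wwtr1 and Axl lie, 4.88% between 0 and 2, where Ccn1 lies, and 1.99% between 2 and 4, where Lats2 and Ccn2 lie. Ccn2 was among the genes of that last range that were higher, and it was chosen with its difference known. The part of probe level in the differences of the Hippo genes was not tested.

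The same held within the pathway. Of 10 Hippo pathway genes with several usable probes, the dimmest probe had the larger signed difference in 9. It was at least 2.5-fold higher with knockdown in 6 genes, against 1 gene, Axl, by the brightest probe. Stk3, which encodes the kinase MST2, was at -0.03 by its brightest probe and 1.89 by its dimmest. Nf2, the tumour suppressor merlin that activates LATS, was at 0.38 and 1.92 in the same order, and Map4k4, a kinase that can act on LATS beside MST, at -0.11 and 2.18. Stk4, which encodes MST1, ran the other way at -0.43 and -1.42. The comparison over all genes took only probes above background on all 5 arrays. The dimmest probes of Nf2, Map4k4 and Mob1b were not, though they were above it with knockdown and in its control.

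**Figure D4:**
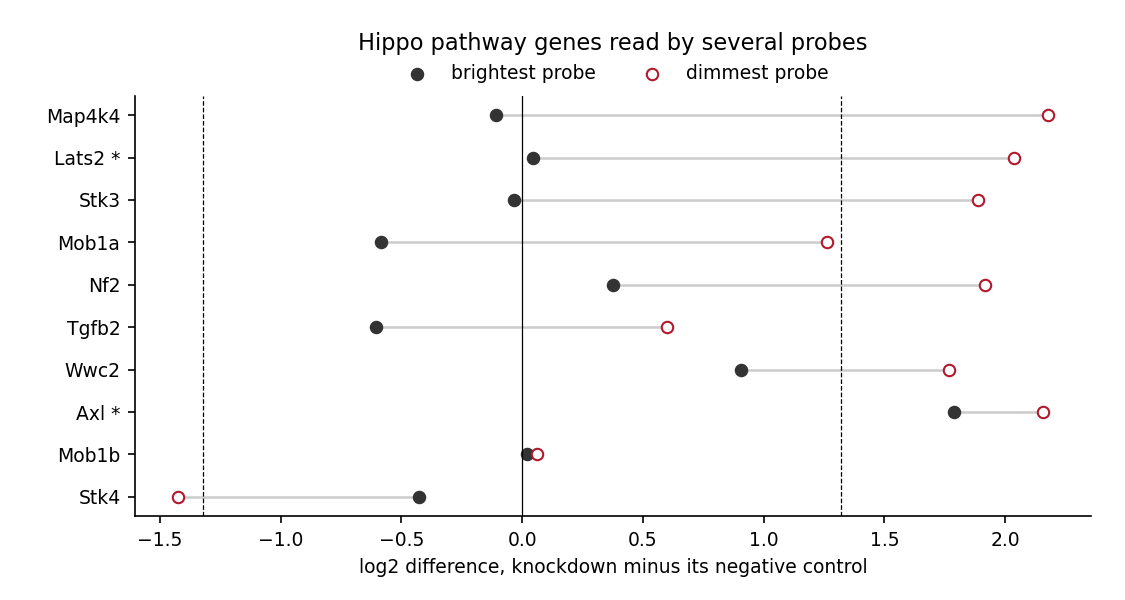
Log2 difference between knockdown and its negative control for 10 Hippo pathway genes with several usable probes, by the brightest probe (filled) and the dimmest (open). Asterisks mark Axl and Lats2, and dashed lines mark 2.5-fold. Open circles lie to the right in all genes but Stk4.

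The rest of the pathway was read through lists drawn up by role, likewise with earlier values known. By the brightest probes, none of 5 measured core kinase and adaptor genes (Stk3, Stk4, Sav1, Mob1a and Mob1b) differed by 2.5-fold between knockdown and its control, and their median was -0.03. Over 5 lists of upstream and partner genes, 34 of 50 were measured and 33 could be compared. Of these, 6 were higher and 2 lower with knockdown than in its control, beside 8.64% and 9.5% of all genes. Against the overexpression control 8 were higher and 4 lower, beside 13.3% and 16.3%. Against normal cells 8 were higher and 5 lower, beside 11.2% and 19.5%. The median against the knockdown control was -0.07, and that of all genes was -0.21.

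Among the upstream inputs, Taok1, a kinase that activates MST kinases, was 7.53-fold higher with knockdown than in its control. Rassf1, an MST-binding scaffold, was 4.64-fold higher and its relative Rassf5 2.53-fold. The polarity scaffolds Scrib and Pard3 were 4.25-fold and 3.14-fold lower. Against normal cells Pard3 was 1.51-fold lower, short of 2.5-fold. Scrib was lower than in all 3 control arrays, at 3.72 on the array labelled overexpression and 1.27 with knockdown, against 4.01 in the overexpression control, 3.36 in the knockdown control and 3.67 in normal cells. The LIM proteins Ajuba and Limd1, which bind and restrain LATS, were 3.43-fold and 2.75-fold higher, with Ajuba 2.19-fold above the overexpression control. Of the STRIPAK complex, which dephosphorylates MST kinases, the scaffold Strn was 3.17-fold higher and the other 7 measured genes did not differ by 2.5-fold. Of the TEAD relatives, Tead2 was at -0.98 and Tead3 at -0.90, neither past 2.5-fold, beside 4.21 for Tead1.

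Of 22 other genes known as YAP targets, 17 were measured, 5 were higher with knockdown than in its control and none was lower. Among all genes 8.64% were higher and 9.5% lower. Against the overexpression control, 7 of the 17 were higher and 3 lower, beside 13.3% and 16.3% of all genes. Against normal cells 6 were higher and 1 lower, beside 11.2% and 19.5%. Against the knockdown control, the median of 0.29 over the 17 lay between those of the 6 targets above, 3.06, and of all genes. Edn1, which encodes the vasoactive peptide endothelin, stood at -2.53 on the array labelled overexpression and 2.36 with knockdown, against -0.80 in the overexpression control, -2.97 in the knockdown control and -1.39 in normal cells. It was 40.3-fold above the knockdown control. Arhgap29 was 6.94-fold higher, Thbs1, the matrix protein thrombospondin, 3.44-fold, and Asap1, an Arf-inactivating protein, 2.60-fold.

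**Figure D5:**
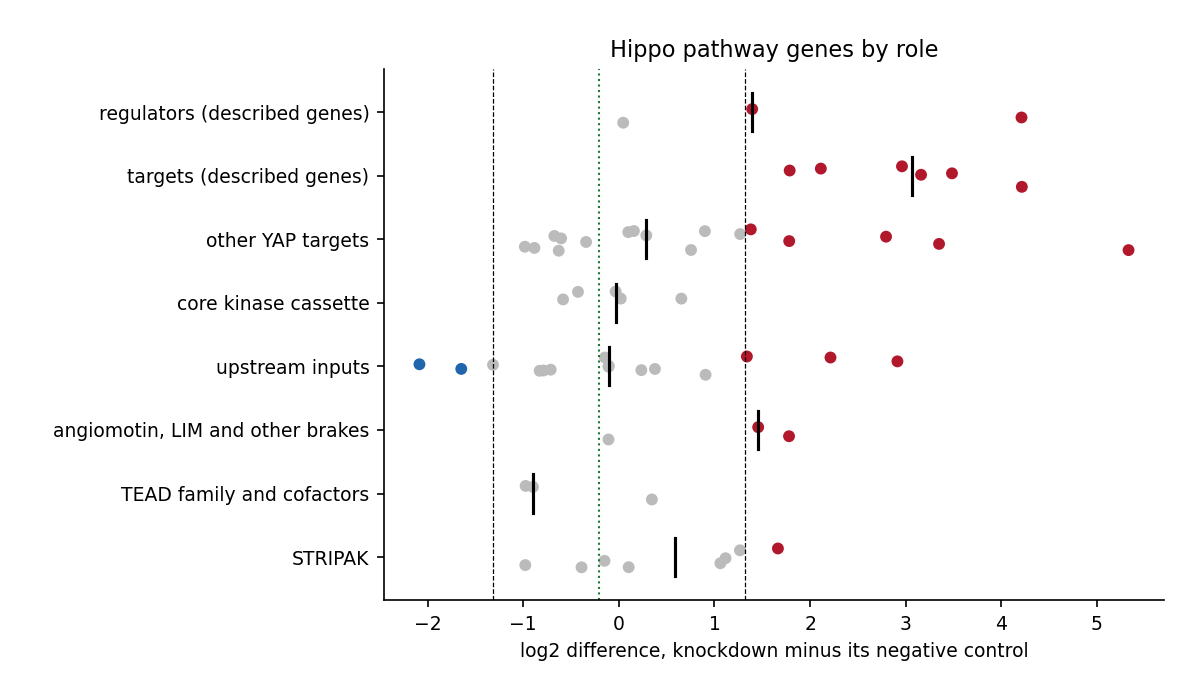
Log2 difference between knockdown and its negative control for measured Hippo pathway genes by role. Each point is 1 gene by its brightest probe, red and blue points differ by at least 2.5-fold, black bars are list medians, dashed lines mark 2.5-fold and the dotted green line is the median of all genes, -0.21. The core kinases lie within the dashed lines.

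None of the 9 Hippo genes differed by 2.5-fold between the array labelled overexpression and its negative control, where 1.9% of 11799 genes were higher and 1.19% lower. The median of the 9 was -0.03, against -0.07 over all genes. Ccn1 was at -1.05 with a scanner interval of -1.45 to -0.65, and Ccn2 at -0.99 with an interval of -1.39 to -0.59. Against the knockdown control the signs on the array labelled overexpression turned, to 0.44 for Ccn1 and 0.87 for Ccn2, so their direction depends on which negative control is used. Ankrd1 differed by 1.00-fold and Wwtr1 by 1.02-fold. Amotl2 was at least 2.09-fold above its dim control. Whether this array held more Tmub1 was not shown by its probe.

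Of the other known targets, Edn1 was 3.33-fold lower on the array labelled overexpression than in its control. Arhgap29 was 3.99-fold higher, Fjx1, the relative of the fly gene four-jointed, at least 2.64-fold higher and Thbs1 at least 2.65-fold higher. Against the knockdown control, the array labelled overexpression was 1.35-fold higher in Edn1, differed by 1.06-fold in Arhgap29 and 1.32-fold in Thbs1, and it was 2.54-fold lower in Fjx1. None of the upstream and partner genes that could be compared differed by 2.5-fold from the overexpression control.

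The negative controls, both transduced with no change of Tmub1 intended, differed from each other in 3 Hippo genes. Ccn2 was 3.62-fold and Ccn1 2.80-fold higher in the overexpression control than in the knockdown control, and Amotl2 was at least 4.41-fold lower. Of 11926 genes, 3.81% were higher and 4.95% lower. Axl was at -1.05 log2 units by its brighter probe and -2.44 by the other. In Ccn1, Ccn2, Amotl2 and Axl the choice of negative control thus sets the size of the knockdown difference. Tead1, Ankrd1, Nuak2 and Wwtr1 differed by at most 0.67 log2 units between these controls. With normal cells added, the control levels spanned 2.10 log2 units for Ankrd1, 1.47 for Nuak2, 0.69 for Tead1 and 0.33 for Wwtr1. That span was 1.485 for Ccn1, 1.86 for Ccn2, 1.07 for Axl and at least 2.53 for Amotl2. In Ankrd1 and Nuak2 the size thus also depends on whether normal cells serve as the control.

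Against normal cells, Ankrd1 was the single Hippo gene at least 2.5-fold higher in either negative control, beside 7.81% of genes for the overexpression control and 6.93% for the knockdown control. Nuak2 was 2.76-fold and Amotl2 at least 5.77-fold lower in the overexpression control than in normal cells, beside 10.9% of genes. No Hippo gene was lower by this fold in the knockdown control, beside 10.3%. The array labelled overexpression had Ankrd1 4.31-fold higher and Amotl2 2.76-fold lower than normal cells, beside 7.32% of genes higher and 10.4% lower.

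The profile of the 6 targets over the 5 arrays, each centred on its own mean and averaged, was -0.60 on the array labelled overexpression and 2.28 with knockdown, against -0.61 in the overexpression control, -0.67 in the knockdown control and -0.40 in normal cells. Among 10702 genes the 5 nearest to it by root mean square distance were Smyd2 at 0.149 log2 units, Polr1b at 0.151, Ap1g1 at 0.160, Scrn1 at 0.169 and Dusp1 at 0.180. The median gene lay 1.35 away. Dusp1, which encodes a phosphatase of MAP kinases, had a level of -1.70 on the array labelled overexpression and 1.41 with knockdown, against -1.96 in the overexpression control, -1.53 in the knockdown control and -1.44 in normal cells. Of the Hippo genes, Nuak2 at 0.416, Tead1 at 0.438 and Axl at 0.467 lay nearest, and Ankrd1 at 1.05 and Lats2 at 1.22 farthest. The targets went into the profile, so their own distances are smaller by construction.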

How the data were processed

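Expression was measured on 5 one-colour Agilent arrays, 1 per group. Per the file headers, Agilent Feature Extraction 11.0.1.1 produced the spot values, while version 9.1 stands in the submitters' processing notes. The deposited processed signal is an intensity that the authors' scanner software had background-subtracted and detrended, with no scaling between arrays. The deposited flags give spots above background and outliers. The authors' deposited value table is in log2 units and served as an alternative.

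Control and outlier spots were left out, spots of a probe averaged, and log2 signal taken minus each array's 75th percentile. Of 30367 probes, 267 with outlier spots only on some array were left out. Of the 30100 used, 17865 were named by looking up their deposited accession in RefSeq (GRCr8), and 12235 stayed unnamed. Between 67.0% and 86.6% of probes per array were well above background, and no spot was saturated. The share was 81.0% on the knockdown array and 73.2% in its control. Before scaling, the median signal was 356 on the knockdown array and 144 on the array labelled overexpression. It was 160 in the knockdown control, 116 in the overexpression control and 329 in normal cells. The part of array brightness in the differences was not tested. The number of arrays limits the precision. A difference was called at 2.5-fold or more with the brighter side above background. Calls were tested on simulated data. That test checks the calling rule and not the spread between cultures. Members and lists were chosen with earlier results of these data known. Named genes are the members, Tmub1, list genes past the fold with knockdown or overexpression, and the 5 nearest profiles. Other genes were named after their values were seen. A gene of the list of other YAP targets is counted but not reported by name here. Alternatives changed the scaling, background correction (normexp on median signals, limma 3.58.1, R 4.3.3), probe choice, filter, fold and control array.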

Additional observations from a re-analysis of the deposited data

Results flagged for a closer look

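Tead1, Ccn1 and Ccn2 went opposite ways in the comparisons of the viruses with their own negative controls. They were at -0.44, -1.05 and -0.99 log2 units on the array labelled overexpression, each higher with knockdown by at least 2.5-fold. None of these overexpression differences passed 2.5-fold, each rests on 1 array a group, and the difference between the comparisons was not tested. Against the knockdown control all 3 were positive on the array labelled overexpression, at 0.23, 0.44 and 0.87 in the same order. Against normal cells they were at -0.46, -0.63 and 0.30. The direction thus depends on the control array used. The dimmer Lats2 probe, which does not stand for the gene in the counts, was 2.04 log2 units higher with knockdown than in its control, against 0.04 for the brighter probe.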

How the results depend on the processing

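With 1 array a group, no setting adds a replicate, and signal over background limits Amotl2, dim in the overexpression control. The knockdown count stayed between 6 and 8 higher and 0 lower under 11 alternatives, some of which replaced the control array, and at 2-fold and 4-fold. It was 6 with the overexpression control or normal cells as the reference. With its own control kept it was 7 or 8 at 2.5-fold, and 6 at 4-fold. Ccn1 passed 2.5-fold under 9 of the 11, Ccn2 under 10, Wwtr1 under 8 and Lats2 under 0. Ccn1 fell short when the overexpression control or normal cells were the reference, at 0.63 and 1.04 log2 units. Ankrd1 ranged from 2.66 to 5.81 log2 units and Tead1 from 3.27 to 4.50. No knockdown difference called against its own control changed sign under the alternatives. Amotl2 on the array labelled overexpression did, from 1.06 against its own control, not called, to -1.47 against normal cells, called lower. No paired analysis was possible because the groups share 1 replicate number, with 1 array each.

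Other counts are small and moved by 1 or 2 genes, and the cause was not tested beyond the settings' own construction. For the array labelled overexpression against its own control (0 higher, 0 lower), normal cells as the control gave 1 higher and 1 lower, and a fold of 2 gave 1 higher and 1 lower. For the overexpression control against the knockdown control (2 higher, 1 lower), normexp with an offset of 50 gave 1 higher and 0 lower. The mean of all probes gave 2 lower, probes above background on all 5 arrays 0 lower, a fold of 2 gave 2 lower and a fold of 4 gave 0 higher. For the overexpression control against normal cells (1 higher, 2 lower), quantile normalization, cyclic loess, the authors' deposited table, probes above background on all 5 arrays and a fold of 4 each gave 1 lower. The array median there gave 3 higher and 1 lower, normexp 0 higher and 0 lower, and a fold of 2 gave 3 higher and 3 lower. The mean of all probes and the 75th percentile over probes above background also gave 3 lower. For the knockdown control against normal cells (1 higher, 0 lower), the 75th percentile over probes above background gave 1 lower, normexp 0 higher, a fold of 2 gave 2 lower and a fold of 4 gave 0 higher.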
